A study of Rattus norvegicus with 20 samples.

Results

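GABA acts in the arcuate nucleus through ion channels, the GABA-A receptors, and through a slower G protein-coupled receptor, the GABA-B receptor, which works only as a pair of its subunits Gabbr1 and Gabbr2. How many GABA-A receptors stand at a synapse depends on a scaffold, gephyrin (Gphn), and on proteins that carry, insert and recycle receptors, among them Gabarap and its relatives Gabarapl1 and Gabarapl2, the fusion ATPase Nsf and the kinesin adaptor Trak2. The Gabarap proteins also belong to the ATG8 family and are attached to the membranes of autophagosomes, so their levels bear on autophagy as well as on receptor traffic. These 8 genes were chosen by the gene name attached to each probe that is not a control. They are 8 of the 17086 genes measured, and their 14 probes, of 19883 kept, all passed the filter on dim probes.

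The samples are arcuate nuclei of 20 female Sprague-Dawley rats taken on postnatal day 15, with 4 rats in each of 5 conditions. SNS rats were exposed to saline before birth, had no spasms and received saline after birth. Mothers of all other rats were injected with betamethasone (0.4 mg/kg per injection) on gestational day 15. BNS rats had no spasms and received saline, whereas in BYS, BYA and BYP rats NMDA on postnatal days 12, 13 and 15 triggered spasms, and saline, ACTH or PMX53, an antagonist of the complement receptor C5ar1, was given from day 13 to day 15 in the labels. Each rat is 1 channel of a two-colour array, and 9 of the 11 arrays carry a pair of rats of the same condition.

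Among these samples no slide was shared by different conditions. A difference between any conditions, with or without SNS, and a difference between slides therefore cannot be told apart. Spots were brighter over their local background in some conditions than in others, by a median factor of 16.0 in BNS, 16.0 in BYS, 9.06 in BYP, 7.43 in BYA and 6.94 in SNS. Of 10 arcuate nucleus markers, 9 passed the filter, and limma's F test called 0 of these over the 5 conditions, against 30.3% of all genes. In BYS against SNS, 2 of the 9 were called lower, where 27.1% of all genes were called. Their median change there was -0.24, where that of all genes was -0.03. No arcuate marker was called in the other comparisons. Of 6 pituitary markers, Gh1, Prl, Tshb and Fshb did not pass the filter, whereas Lhb was well above background in all 20 samples (log2 level from 10.49 to 11.53) and Pomc is an arcuate gene too. The summed pituitary level was 14.5 to 15.2 in SNS and 13.9 to 15.4 over the other conditions. Levels are given as log2 normalised intensity, which compares samples for 1 probe but not probes or genes with each other. Nothing in the labels ties the rats to litters, so p-values measure the spread between these samples. The main fit took rats on the same array as independent, though the estimated correlation within an array was 0.37. A fit with array as a random block called 2588 genes in BNS against SNS, where the main fit called 4884.

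Among the 8 genes, Gabarapl2 differed over the 5 conditions (limma, F test, adjusted p = 0.00145), and the other 7 had adjusted p-values from 0.124 (Trak2) to 0.742 (Gphn). Of all genes tested, 30.3% passed the same F test. The Gabbr1 mean in this test includes a dim probe, described below. The calls against SNS were few. Gabarapl2 was lower in BNS, BYS, BYA and BYP than in SNS, and Trak2 was higher in BYA than in SNS. This made 1 of 8 called in BNS against 28.6% of all genes, 1 of 8 in BYS against 27.1%, 2 of 8 in BYA against 31.3% and 1 of 8 in BYP against 28.9%. The plot of all 8 genes by sample shows these levels.

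**Figure D1:**
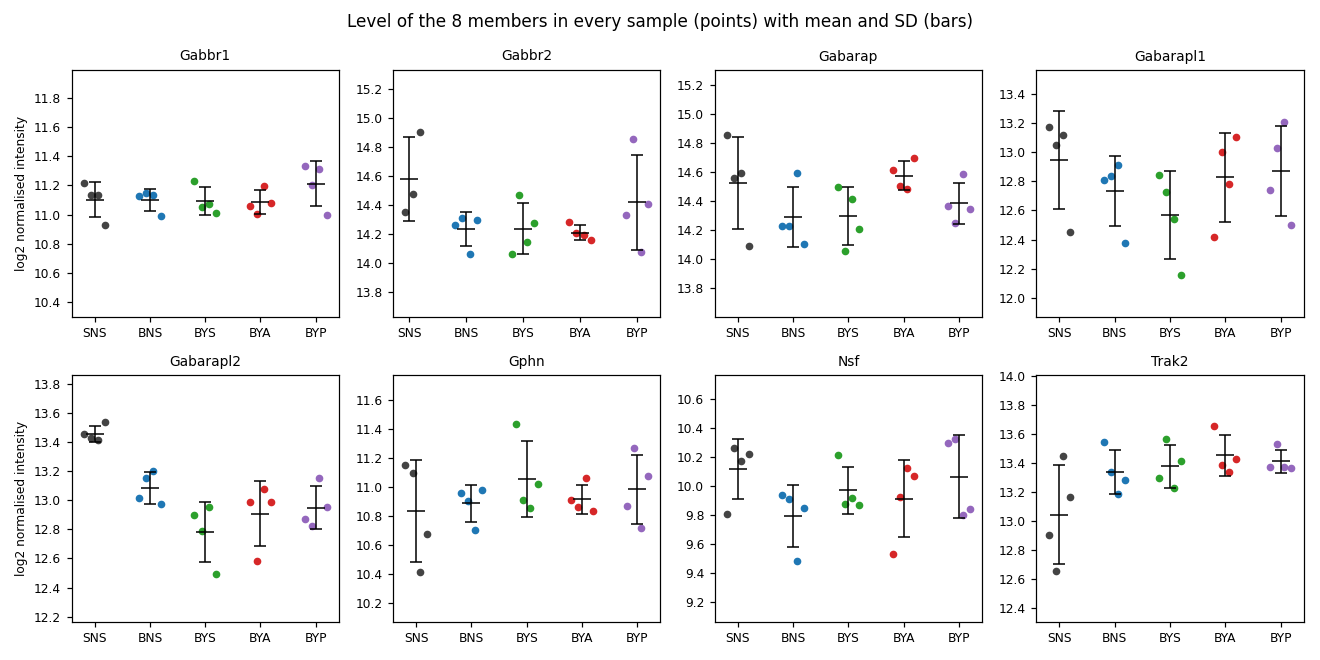
Log2 normalised intensity (vertical axes, each spanning the same range) of the 8 genes in the 4 samples of each condition, with black bars for the mean and SD. Gabarapl2 is the gene whose 4 SNS samples, between 13.42 and 13.54, lie above all samples of the other conditions, and the SNS samples of Trak2 are spread from 12.66 to 13.45.

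Gabarapl2, also known as GATE-16, is the ATG8 protein first described as a factor of transport within the Golgi apparatus. Its level averaged over its middle and last probe was 13.46, 13.43, 13.42 and 13.54 in SNS replicates 1 to 4. It was 13.02, 13.15, 13.20 and 12.97 in BNS and 12.90, 12.79, 12.96 and 12.49 in BYS. It was 12.99, 12.58, 13.08 and 12.99 in BYA and 12.87, 12.82, 13.15 and 12.95 in BYP. The SNS samples thus stood above every other sample, while BYS, BYA and BYP overlapped each other.

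Against SNS, Gabarapl2 was lower by a log2 change of -0.37 (SE 0.11) in BNS, -0.68 (SE 0.11) in BYS, -0.55 (SE 0.11) in BYA and -0.51 (SE 0.11) in BYP, with limma adjusted p-values of 0.0167, 0.000219, 0.00117 and 0.00232. The SNS levels were 1.30 times those of BNS and 1.60 times those of BYS. Gabarapl2 was also the sole member whose 4 samples did not overlap those of SNS in any of these comparisons, after the dye effect was removed, where 35.9% of all genes did not overlap in BNS, 30.4% in BYS, 29.8% in BYA and 30.4% in BYP. Fewer cells that express a gene and less RNA per cell cannot be told apart in whole tissue. The call in BNS was lost without SNS replicate 4 (adjusted p = 0.0503), without BNS replicate 1 (0.0598) or with array as a random block (0.0793).

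Some summed marker levels were also apart from SNS. That of the 3 choroid plexus markers measured (of 5) was 11.8 to 12.8 in SNS and 10.9 to 11.6 in both BNS and BYP, with log2 changes in BNS of -1.13 for Ttr (limma adjusted p = 0.0892) and -0.47 for Folr1 (adjusted p = 0.175), which were not called, and of 0.22 for Aqp1 (adjusted p = 0.0386), which was. That of the 8 microglia markers was 14.7 to 14.9 in SNS and 14.3 to 14.6 in BNS, where Cx3cr1 fell by 0.73 (adjusted p = 0.00284) and the other 7 were not called. In BYP the summed level of the 4 red blood cell markers lay lower (16.4 to 16.8 against 16.8 to 17.1 in SNS) and that of the 3 ventromedial hypothalamus markers higher (13.2 to 13.3 against 12.4 to 13.1). In BYS and BYA no summed level was apart from SNS, but single markers of these lists were called by limma. In BYS, Cx3cr1 changed by -1.22 (adjusted p = 2.9e-05), C1qa by 0.49 (0.00249), Adcyap1 by 0.59 (0.0381) and Alas2 by 0.93 (0.0243). In BYA, P2ry12 changed by -0.66 (adjusted p = 0.0140), Folr1 by -0.86 (0.0170) and Alas2 by 1.02 (0.0128). The part of these in the results was not tested.

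Gabarapl2 was measured by 3 probes, and they did not move together. The sequences are shown because the probes lie at different places of the same transcript and gave different directions. The first probe lies at chr19:41882011-41882070 of the rat build rn4, plus strand, at base 192 of the transcript, and reads without a stop codon in 2 of the 3 forward frames. The middle probe lies at chr19:41890339-41890397, at base 857, and the last at chr19:41890874-41890933, at base 1392, and both hold stop codons in all 3 frames. Of the 60 bases of each of these, 30 are shown. Capitals in the last probe mark a run of 12 letters, GAGATGGCTCAG, which is also found in the B2 family of short repeats of rodents. It is held on either strand by 6 of the 30367 probes of the array (0.0198%).
first probe, A_64_P155645: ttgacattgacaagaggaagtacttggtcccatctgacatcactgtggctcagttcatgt
middle probe, A_64_P000256: ctgagctaatctgttctttctgagactata
last probe, A_64_P111604: agggctgaaGAGATGGCTCAGcagctaagg

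The middle probe was the one that changed most. It read 14.87, 15.01, 14.92 and 15.32 in SNS, 14.32, 14.70, 14.64 and 14.38 in BNS, and 14.23, 13.98, 14.29 and 14.46 in BYS. It read 14.39, 13.49, 14.46 and 14.52 in BYA and 14.31, 14.48, 14.57 and 14.46 in BYP. Every SNS sample exceeded every other sample. Against SNS it fell by 0.52 (SE 0.18) in BNS, 0.79 in BYS, 0.82 in BYA and 0.58 in BYP on the log2 scale, with limma adjusted p-values over all probes of 0.0419, 0.00438, 0.00301 and 0.0260. The change in BNS was near the threshold, and leaving out any 1 of SNS replicates 2 to 4, BNS replicates 1, 3 or 4, or BYS replicates 1 or 3 ended the call (adjusted p from 0.0503 to 0.122), as did the processed signals (-0.26, adjusted p = 0.380). In BYP it was lost without SNS replicate 4 (0.0825) or BYP replicate 1 (0.0694). With array as a random block the probe was still called in BYS and BYA, but not in BNS (0.147) or BYP (0.108). The processed signals also ended the calls in BYS (-0.48, limma adjusted p = 0.0843), BYA (-0.37, 0.210) and BYP (-0.25, 0.375). With channel medians made equal the probe was called in BNS (0.0286) and BYP (0.0119), but not in BYS (0.0853) or BYA (0.0584).

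The last probe fell by 0.56 in BYS (SE 0.16, limma adjusted p = 0.0179) and by 0.44 in BYP (SE 0.16, adjusted p = 0.0499). It read 12.05, 11.84, 11.92 and 11.75 in SNS and 11.57, 11.60, 11.63 and 10.52 in BYS, where replicate 4 lay far below the other samples. Without BYS replicate 4 the fall in BYS was 0.32 (adjusted p = 0.0332). The call in BYP was lost in 17 of the 20 fits that left out 1 sample (adjusted p up to 0.124), and with array as a random block neither was called (0.0805 in BYS and 0.152 in BYP). With the processed signals the last probe changed by -0.28 in BYS (limma adjusted p = 0.412) and by 0.04 in BYP (0.928), where the sign turned. With channel medians made equal it was called in BYP (0.0332) but not in BYS (0.320). Its changes in BNS, of -0.23 (SE 0.16, adjusted p = 0.30), and in BYA, of -0.29 (SE 0.16, adjusted p = 0.190), did not pass the threshold.

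The first probe had the opposite sign. It read 12.62, 13.10 and 13.20 in SNS replicates 1, 3 and 4, and 13.40, 13.35 and 13.32 in BNS replicates 1, 3 and 4. Replicate 2 of SNS and of BNS had a spot marked as an outlier, and the probe was therefore left out of the mean for the gene. Its BNS samples stood above its SNS samples, but the difference of 0.38 (SE 0.18, limma adjusted p = 0.113) did not pass the threshold, nor did those in BYS (0.37, adjusted p = 0.102), BYA (0.27, adjusted p = 0.230) and BYP (0.24, adjusted p = 0.277). The difference between the middle and the first probe within a sample changed from SNS by between -1.17 (BYS) and -0.82 (BYP). Its exact two-sided permutation p was 0.0286 in BYA and BYP, the smallest that 4 against 3 samples can give, 0.0571 in BYS, and 0.1 in BNS, the smallest for 3 against 3. Adjusted over all such comparisons of probe pairs, none passed the threshold (0.0610 in BYA and BYP, 0.0962 in BYS and 0.128 in BNS). The permutation also took rats on the same array as independent.

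When the 2 outlier spots were kept and all 3 probes were averaged, the fall of Gabarapl2 was smaller and was no longer called in any comparison. The level was then 13.26 ± 0.13 in SNS and 12.97 ± 0.24 in BYS (SD, n = 4), and the largest change, that of BYS, was -0.29 (limma adjusted p = 0.0653). With the signals processed by the scanner's software in place of quantile normalisation, the changes ranged from -0.38 in BYS (adjusted p = 0.0837) to -0.04 in BNS (adjusted p = 0.905).

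**Figure D2:**
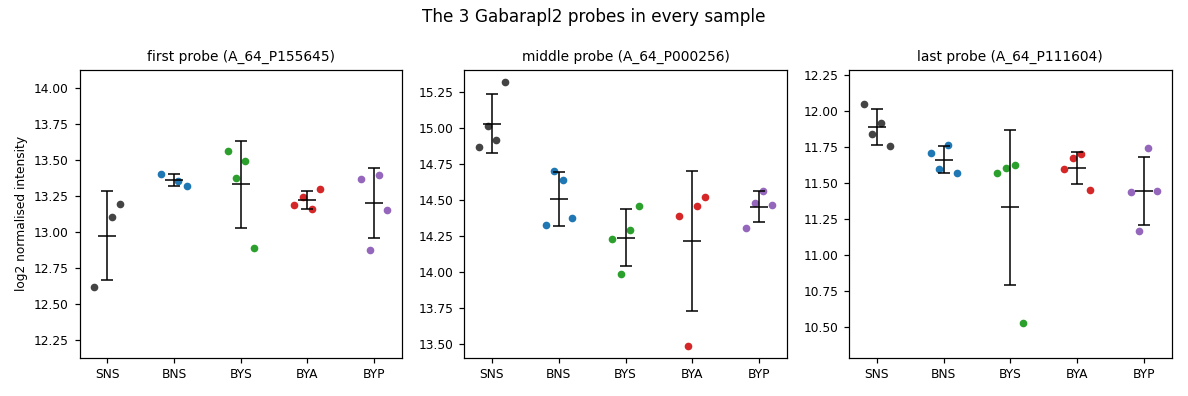
Log2 normalised intensity of each Gabarapl2 probe in every sample, with black bars for the mean and SD, on vertical axes of equal range. The SNS samples of the middle probe, from 14.87 to 15.32, lie above all others, and those of the first probe, from 12.62 to 13.20, lie below the BNS samples.

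**Figure D3:**
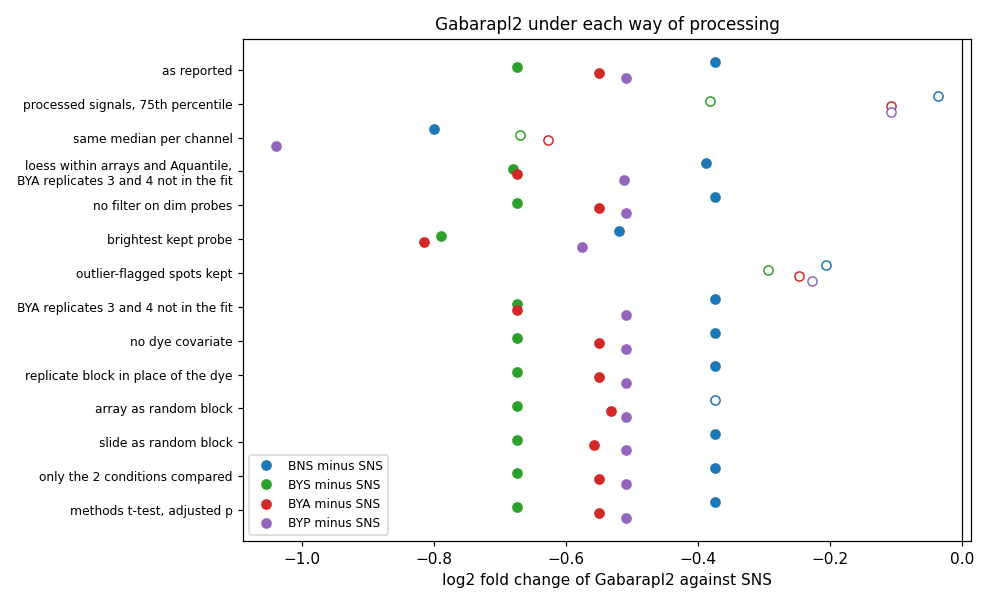
Log2 change of Gabarapl2 against SNS (horizontal axis) for each way of processing (rows), with filled points for adjusted p under the threshold and open points otherwise. All points lie below 0, and those of the processed signals and of the setting that kept outlier-flagged spots are all open.

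Gabarap itself, which binds GABA-A receptors and the cytoskeleton, showed no called change with its 1 probe. It read 14.85, 14.56, 14.59 and 14.09 in SNS and 14.23, 14.23, 14.59 and 14.11 in BNS, so that SNS replicate 4 lay below all BNS samples. The change in BNS was -0.23 (SE 0.12, limma adjusted p = 0.156). With the processed signals it was -0.55 in BNS (adjusted p = 0.00620) and -0.59 in BYS (adjusted p = 0.00377), so that the family member that was called depended on the processing.

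Gabarapl1, the ATG8 protein that is abundant in neurons and is also called GEC1, was measured by 2 probes that differed. The first lies at chr4:166810026-166810085 (rn4, plus strand) and ends with the stop codon of the reading frame, in capitals. The second lies at chr4:166811168-166811227, further along the same transcript, and 30 of its 60 bases are shown.
first probe, A_64_P156684: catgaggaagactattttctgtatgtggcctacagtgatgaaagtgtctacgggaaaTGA
second probe, A_44_P1007933: tttgtcggcatcaggttctgggactttgaa

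The second probe rose in every condition against SNS. It read 15.96, 15.92, 16.18 and 16.06 in SNS, 16.91, 16.92, 17.03 and 16.91 in BNS, and 16.72, 16.91, 16.84 and 16.81 in BYS. It read 16.74, 16.92 and 16.94 in BYA, where replicate 3 was an outlier spot, and 16.73, 16.83, 16.94 and 16.85 in BYP. The SNS samples lay below all others by more than their own range. The rises were 0.91 (SE 0.09) in BNS, 0.79 in BYS, 0.83 in BYA and 0.80 in BYP, with limma adjusted p-values from 1.35e-06 to 7.24e-06. The mean spot signal of this probe reached 261598, and none of its 20 spots was marked as saturated. With the processed signals the change was 0.19 in BNS (adjusted p = 0.266) and 0.03 in BYS (adjusted p = 0.904), and it was still called in BYA and BYP. With channel medians made equal, none of these rises was called. This probe then changed by 0.24 for BNS (limma adjusted p = 0.550), 0.61 for BYS (0.170), 0.89 for BYA (0.0631) and 0.29 for BYP (0.398).

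The first Gabarapl1 probe, which stands for the gene because it had no missing value, read 13.17, 13.05, 13.12 and 12.45 in SNS and 12.81, 12.84, 12.91 and 12.37 in BNS. These samples overlapped, and its change in BNS was -0.21 (SE 0.20, limma adjusted p = 0.424 over all probes). The difference between the second and the first probe changed from SNS by 1.13 in BNS, 1.17 in BYS, 0.92 in BYA and 0.88 in BYP, with an exact permutation p of 0.0286 in BNS, BYS and BYP, the smallest possible, and of 0.0571 in BYA. Adjusted over all such comparisons of probe pairs, these were 0.0610 in BNS, BYS and BYP and 0.0962 in BYA, and did not pass the threshold.

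Gephyrin (Gphn) forms the lattice under inhibitory synapses to which GABA-A and glycine receptors are bound. Averaged over its 2 probes it showed no called change, with log2 changes against SNS from 0.05 in BNS to 0.22 in BYS. The probes, however, were called in opposite directions in every comparison with SNS. With array as a random block this held in BYA alone, and with the processed signals in no condition. They lie 104 bases apart, at chr6:101301993-101302052 and chr6:101302157-101302216 (rn4, plus strand), at bases 2255 and 2419 of the transcript. The sequences are shown because probes this close gave opposite results, with 30 bases of the second.
first probe, A_64_P130753: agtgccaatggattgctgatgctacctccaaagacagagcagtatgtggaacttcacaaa
second probe, A_44_P119993: aacggcacagctagtttttctgatctggat

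The first Gphn probe read 11.44, 11.60, 10.90 and 11.32 in SNS, 10.72, 10.78, 10.52 and 10.82 in BNS, and 11.18, 10.80, 10.45 and 10.86 in BYS. All SNS samples exceeded all BNS samples, and SNS replicate 3 lay within the range of BYS. It fell by 0.61 (SE 0.18) in BNS, 0.50 in BYS, 0.66 in BYA and 0.54 in BYP, with limma adjusted p-values of 0.0173, 0.0467, 0.00945 and 0.0316. With array as a random block, a fit that allows for rats that share an array, it was called in BYA but not in BNS (0.0712), BYS (0.142) or BYP (0.106). When 1 sample was left out, the call in BNS was lost without SNS replicate 1 (0.0593), that in BYS in 12 of 20 fits (adjusted p up to 0.146), and that in BYP without SNS replicates 1 or 2 or BYP replicates 1, 3 or 4 (0.0541 to 0.0945).

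The second Gphn probe read 10.86, 10.59, 9.92 and 10.02 in SNS, 11.20, 11.03, 10.89 and 11.14 in BNS, and 11.69, 11.03, 11.26 and 11.19 in BYS. Here all SNS samples lay below those of BNS and BYS. It rose by 0.72 (SE 0.19) in BNS, 0.94 in BYS, 0.83 in BYA and 0.84 in BYP, with adjusted p-values of 0.0108, 0.00170, 0.00381 and 0.00391. The difference between the second and the first probe changed by 1.32 to 1.49 from SNS in the 4 conditions (exact permutation p = 0.0286 in each, the smallest possible). Over the 32 such comparisons of 8 probe pairs, this corresponded to an adjusted p of 0.0610, which 4 samples against 4 could not bring lower here. With the processed signals neither probe was called in BNS (-0.28, adjusted p = 0.367 for the first, and 0.46, adjusted p = 0.208 for the second), and their signs were still opposite. Nor was either called in BYS, BYA or BYP (limma adjusted p from 0.526 to 0.726 for the first, and from 0.0767 to 0.175 for the second). With channel medians made equal, the first was not called in BYS (0.327) or BYA (0.104). The second was then not called in BNS (0.274), BYA (0.0845) or BYP (0.225).

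**Figure D4:**
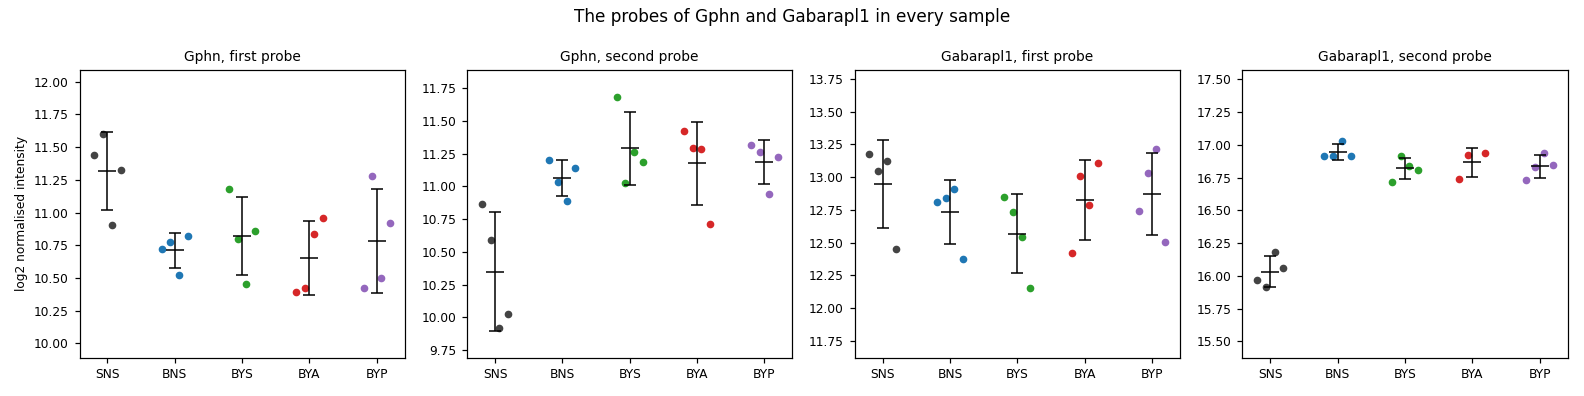
Log2 normalised intensity of the 2 probes of Gphn and the 2 of Gabarapl1 in every sample, with black bars for the mean and SD, on vertical axes of equal range. SNS is high with the first Gphn probe (10.90 to 11.60) and low with the second (9.92 to 10.86), and lowest with the second Gabarapl1 probe (15.92 to 16.18).

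Gabbr1 carries the site at which GABA binds. The gene's mean over its 3 probes showed no called change, with changes against SNS from -0.02 to 0.11. The probes pointed in different directions. This mean includes the dim probe described next, which changed by 0.58 in BNS where the other 2 each changed by -0.30. The flat mean is therefore not read as a result. The probe made to the transcript named GABA-B receptor 1g in the files (A_44_P313708, chr20:1577515-1578777, minus strand, a span longer than the probe) read 7.00, 7.39, 7.52 and 7.68 in SNS and 7.83, 7.94, 8.12 and 8.03 in BNS. This probe was dim. It was well above background in 1 of 4 SNS, 3 of 4 BNS, 2 of 4 BYA and 2 of 4 BYP samples, and it passed the filter only through BYS, where all 4 were. Its differences from SNS, of 0.58 in BNS and 0.45 to 0.47 in the other conditions, are therefore set against a group mostly not above background, and nothing is drawn from the test of them.

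Of the other Gabbr1 probes, the one at chr20:1553442-1553501 (minus strand) read 14.07, 13.78, 13.79 and 13.59 in SNS and 13.57, 13.47, 13.51 and 13.49 in BNS. It fell by 0.30 in BNS (SE 0.10, limma adjusted p = 0.0332) and by 0.31 in BYA (adjusted p = 0.0275), and its change was -0.22 in BYS (adjusted p = 0.115) and -0.03 in BYP (adjusted p = 0.848). The call in BNS was lost without any 1 of SNS replicates 1 and 2 and BNS replicates 1 to 4 (adjusted p from 0.0568 to 0.117), that in BYA without SNS replicates 1 or 2 or BYA replicates 1 or 2 (0.0567 to 0.0987), and both with array as a random block (0.107 in BNS and 0.0916 in BYA). The one at chr20:1555345-1555404 (minus strand) changed by -0.30 in BNS (SE 0.18, adjusted p = 0.213) with overlapping samples. The difference between these 2 probes changed from SNS by between -0.08 and 0.10 (exact permutation p from 0.543 to 0.971).

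Gabbr2, the subunit that couples the receptor to its G protein, was measured by 1 probe. It read 14.36, 14.48 and 14.90 in SNS replicates 2 to 4, replicate 1 being an outlier spot, and 14.26, 14.31, 14.06 and 14.30 in BNS. Before the dye effect was removed, these SNS samples were all above the BNS samples, and the fitted change of -0.31 (SE 0.14, limma adjusted p = 0.108) did not pass the threshold. Its changes were -0.31 in BYS, -0.34 in BYA and -0.13 in BYP. With the outlier spot kept, the change in BYA was -0.36 (adjusted p = 0.0430).

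Nsf, which separates SNARE complexes after membrane fusion, read 9.81, 10.26, 10.18 and 10.22 in SNS and 9.94, 9.91, 9.48 and 9.85 in BNS. SNS replicate 1 lay among the BNS samples, and the change was -0.32 (SE 0.16, limma adjusted p = 0.129). In the other conditions it was between -0.21 and -0.05.

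Trak2 links mitochondria and GABA-A receptor vesicles to kinesin motors. It read 12.90, 12.66, 13.45 and 13.16 in SNS and 13.65, 13.39, 13.34 and 13.42 in BYA. SNS replicate 3 lay above BYA replicates 2, 3 and 4, so that the groups overlapped. Trak2 rose by 0.41 in BYA (SE 0.14, limma adjusted p = 0.0317), and its changes in BNS (0.30, adjusted p = 0.115), BYS (0.33, adjusted p = 0.0799) and BYP (0.37, adjusted p = 0.0531) did not pass. The call in BYA was lost without SNS replicate 1 (adjusted p = 0.0896), without SNS replicate 2 (0.124), and without BYA replicate 1 (0.0990), 2 (0.0510) or 4 (0.0558). With the processed signals the change was -0.08 (adjusted p = 0.795). In the fits over all probes the call was also lost with array as a random block (limma adjusted p = 0.0852), with only both conditions fitted (0.117) and with channel medians made equal (0.533).

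By probe, 6 of the 14 member probes differed over the 5 conditions in the limma F test, where 30.4% of all probes did. In BNS against SNS, 6 of 14 were called, 3 higher and 3 lower, against 28.7% of all probes. Of the 3 higher ones, 1 was the dim Gabbr1 probe. In BYS 6 (27.4% of all probes), in BYA 7 (31.8%) and in BYP 6 (29.2%) of the 14 were called. Each of these counts, and that of the F test, includes the dim Gabbr1 probe. Of the 4 members with more than 1 probe, 2 (Gphn and Gabbr1) had probes called in opposite directions between BNS and SNS, where 3.77% of the 2522 genes with more than 1 probe did, and for Gabbr1 the higher one was the dim probe, so that Gphn was the 1 with probes above background in all samples. In BNS against SNS the median change was -0.01 for probes with under 35% G and C and -0.09 for those with over 55%, and the 14 member probes had between 35% and 55%.

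**Figure D5:**
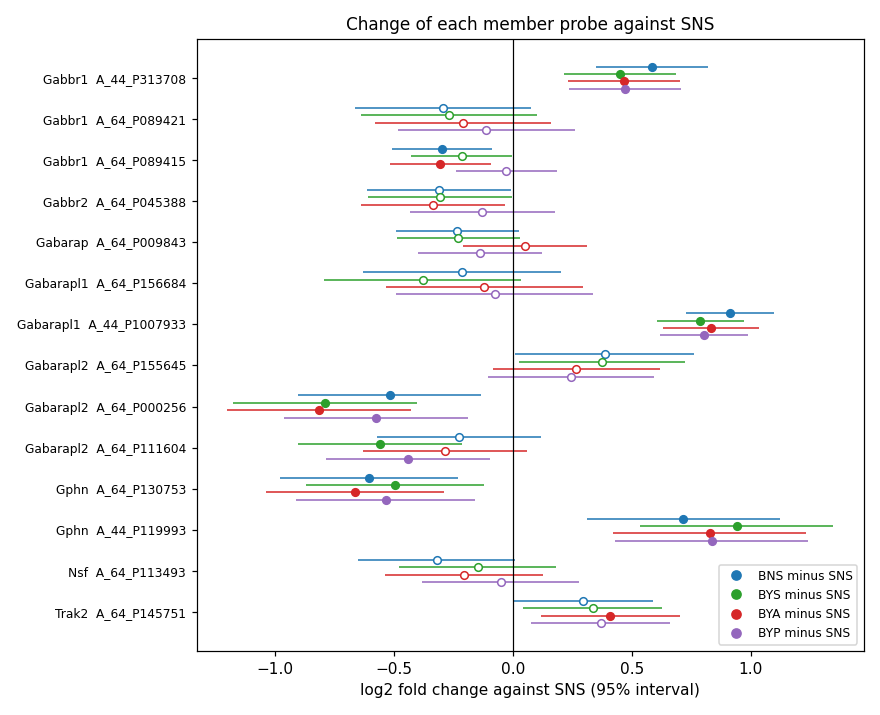
Log2 change of each of the 14 member probes against SNS (horizontal axis) with its 95% interval, coloured by condition, with filled points where the limma adjusted p over all probes was under the threshold. For all 4 genes with several probes (Gphn, Gabarapl1, Gabarapl2 and Gabbr1) the probes lie on both sides of 0, and the Gabarap probe lies at -0.23 in BNS and at 0.05 in BYA.

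Among the 4 conditions exposed to betamethasone no member was called in any of the 6 comparisons by limma. These asked whether spasms, ACTH or PMX53 went along with a difference, and here too slide and condition cannot be told apart. The log2 changes of the 8 genes lay between -0.30 and 0.30, with 95% intervals that reached from -0.58 to 0.72. The lowest adjusted p was 0.332, and 3 of the 48 had an unadjusted p under 0.05. Calls were rare over all genes too, with 0.0293% in BYS against BNS, 0% in BYA and 0.0351% in BYP against BYS, 0.158% in BYP against BYA, 0.117% in BYA and 1.5% in BYP against BNS.

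With spasms, the Gabarapl2 mean was lower in BYS than in BNS without overlap, as 7.28% of all genes were apart in this comparison, but the change of -0.30 (SE 0.11, limma adjusted p = 0.571) was not called. In the other comparisons without SNS, every member overlapped, where the share of all genes apart was 4.96% between BYA and BYS, 5.54% between BYP and BYS, 7.59% between BYP and BYA, 10.1% between BYA and BNS, and 15.5% between BYP and BNS. The Gabarapl2 change between BYA and BYS was 0.12 (95% interval from -0.11 to 0.35) and between BYP and BYS 0.17 (from -0.06 to 0.39). Gabarap in BYA read 14.61, 14.50, 14.48 and 14.69, and was 0.28 above BYS (SE 0.12, adjusted p = 0.566).

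The partners of these genes were described by 4 lists, of which all 82 genes were measured. Calls of single list genes were not followed in the other settings or with samples left out. Of 17 partners of the GABA-B receptor, 4 were higher and 1 was lower in BNS than in SNS (5 of 17 against 28.6% of all genes), with a median change of 0.28, where the median of all genes was -0.04. Gprasp1, a protein that sorts internalised G protein-coupled receptors, was the 1 partner of 17 called over the 5 conditions, against 30.3% of all genes (limma F test, adjusted p = 0.0343). Gprasp1 rose by 0.96 in BNS (SE 0.29, limma adjusted p = 0.0193). It read 12.32 to 13.76 in the 3 SNS samples with a value and 13.38 to 14.18 in BNS, so that these ranges overlapped. Kcnj6, a potassium channel subunit opened by GABA-B receptors, rose by 0.47 in BNS (SE 0.17, limma adjusted p = 0.0484). It read 8.82 to 9.07 in SNS and 9.06 to 9.61 in BNS. Ajap1, an auxiliary protein of the receptor, had a change of 0.68 (SE 0.34, adjusted p = 0.135).

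Of 23 genes of GABA-A receptor clustering and transport, 3 were higher and 5 lower in BNS (8 of 23 against 28.6%), with a median of -0.08, and 4 were called over the 5 conditions (4 of 23 against 30.3%). Rhot1, the mitochondrial anchor to which Trak proteins bind, rose by 0.58 (SE 0.15, limma adjusted p = 0.00963). Kif5b, the heavy chain of the kinesin that Trak2 binds, fell by 0.35 (SE 0.11, adjusted p = 0.0244), and Dynll1, a dynein light chain that binds gephyrin, fell by 0.25 (SE 0.08, adjusted p = 0.0247).

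Of 22 genes of ATG8 conjugation and autophagy, 1 was higher and 3 were lower in BNS (4 of 22 against 28.6%), with a median of 0.04, and 5 were called over the 5 conditions (5 of 22 against 30.3%). Nbr1, an autophagy receptor that binds ATG8 proteins, rose by 0.98 (SE 0.23, limma adjusted p = 0.00383). Atg7, the enzyme that activates ATG8 proteins for conjugation, fell by 0.45 (SE 0.11, adjusted p = 0.00475). Sqstm1, another such receptor, was called in the F test (adjusted p = 0.0169) but not in BNS against SNS (0.19, adjusted p = 0.214).

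Of 20 genes of the NSF and SNARE machinery, 4 were higher and 3 lower in BNS (7 of 20 against 28.6%), with a median of 0.07, and 5 were called over the 5 conditions (5 of 20 against 30.3%). Vamp4, a SNARE of the Golgi and endosomes, rose by 0.95 (SE 0.11, limma adjusted p = 6.97e-06), and Vamp2, the SNARE of synaptic vesicles, rose by 1.27 (SE 0.28, adjusted p = 0.00267). Vamp2 was spread from 10.92 to 12.90 in SNS and read 13.26 to 13.69 in BNS. Snap29, a SNARE of autophagosome fusion, fell by 0.70 (SE 0.13, adjusted p = 0.000582). No gene of the 4 lists was called in BYS against BNS.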

How the data were processed

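The authors deposited 1 scanner file per array. Per the file headers, spot means and local background medians are intensities as extracted, while the processed columns hold intensities after background subtraction and dye normalisation by the software. The other columns are flags (0 or 1). The headers name Feature Extraction 11.5.1.1, and the submitters' processing notes name 10.7.3.1. In the files, 82 columns of another series' samples were not used. BYA replicate 3 shares its array with such a sample, and its dye label does not match the order in the raw data's name, so the label was used.

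Signals of 30367 probes were corrected with normexp (offset 50), put on the log2 scale and quantile normalised over 20 channels. Outlier spots (1.18%) were left out. The filter asked that a probe have 0.5 or more of its spots well above background in each of the 4 samples of any condition. Genes are means of their complete probes, or, where none was complete, the probe with fewest missing values. The accessions of 18643 probes (61.4%) matched current symbols, and the others kept the name in the files.

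All samples were fitted with limma 3.58.1 in R 4.3.3, with dye as a covariate and Benjamini-Hochberg adjustment over all genes or probes (threshold 0.05, two-sided). Probe differences within a gene were tested by exact permutation of single samples, after the dye effect was removed. This test took rats on the same array as independent, so its p-values do not allow for the correlation within arrays. On simulated data of 16299 genes, the fit called 56.0% of genes changed by 0.5 and 87.0% of those changed by 1 (log2) between BNS and SNS. Only 100 genes were changed by each size, and samples were drawn without correlation within arrays. These rates may therefore differ from those in the real data. The number of arrays limits the precision.

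The members and lists were chosen with earlier results of these data known. All members are named, with up to 3 genes per list by the smallest F test p and, for each member, the 2 genes of most alike pattern. The alternatives tried are given in the closing section.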

Additional observations from a re-analysis of the deposited data

Results flagged for a closer look

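In 6 of 86 groups of 4 samples checked (8 genes, and 10 probes of the genes with several), 1 sample stood apart from the other 3 by more than Dixon's limit, which chance passes in about 1 of 20 groups. These were Gabbr1 in BNS replicate 4 (10.99, others 11.13 to 11.15), Nsf in BYS replicate 1 (10.21, others 9.87 to 9.92) and Trak2 in BYP replicate 2 (13.53, others 13.37).

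Among the probes, the second Gabarapl1 probe was high in BNS replicate 3 (17.03, others 16.91 to 16.92). The last Gabarapl2 probe was low in BYS replicate 4 (10.52, others 11.57 to 11.63), and the middle one was low in BYA replicate 2 (13.49, others 14.39 to 14.52), so that 2 of the lower values behind the Gabarapl2 mean came each from 1 probe of 1 sample.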

How the results depend on the processing

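No member was called by any limma setting in the comparisons among the conditions exposed to betamethasone. With the methods' t-test at unadjusted p, 1 was called in BYS against BNS (Gabarapl2) and 1 in BYA against BYS (Gabarap). The F test called 1 member, and 0 with equal channel medians or with outlier spots kept (a choice made after seeing the data), 4 with the brightest probe (Gabbr1, Gabarapl1, Gabarapl2 and Gphn) and 3 with slide as a random block, whose estimated correlation of -0.13 made the test less strict. With the processed signals the 1 was Gabarap (adjusted p = 0.0131), not Gabarapl2 (0.236). With equal medians the median of all genes in BNS against SNS was -0.14, where it was -0.04 with quantile normalisation. Of the 14 member probes, 6 were called over the conditions, 3 with the processed signals, 2 with equal medians and 3 with array as a random block. The 6 include the dim Gabbr1 probe. How many of all genes or probes the F test called was not counted in the alternative settings.

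In BNS, BYS, BYA and BYP against SNS, 1, 1, 2 and 1 members were called. With equal medians these were 2, 0, 0 and 2, with the brightest probe 4, 3, 5 and 3, with outlier spots kept 0, 0, 2 and 0, with slide as a block 5, 5, 3 and 2, with array as a block 0, 1, 1 and 1, and with the processed signals 1, 2, 0 and 1 (Gabarap and Gabarapl1, not Gabarapl2). In BYA 1 was called when only both conditions were fitted, when BYA replicates 3 and 4 were left out together (chosen after seeing the data) and with the methods' t-test, unadjusted or adjusted. In BYP 2 were called with loess and Aquantile or without the dye. The replicate number as a block changed no count of members called (1, 1, 2 and 1). Same-numbered samples did not pair (mean correlation of deviations 0.00310). The number of all genes called moved with the setting too, and the member counts are to be read beside it. In BNS against SNS it was 4884, and 2651 with equal medians, 4997 with the brightest probe and 4909 with outlier spots kept. It was 8142 with slide as a block, 2588 with array as a block and 2333 with the processed signals.

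The Gabarapl2 mean kept its sign against SNS in all settings, but its last probe turned from -0.44 to 0.04 in BYP with the processed signals. The sign turned for Trak2 in BYA against SNS with the processed signals (-0.076) and for Gabarapl2 in BYS against BNS with equal medians (0.13). The number of member comparisons without overlap was 5, and 8 with processed signals or equal medians, 10 with loess, which leaves out BYA replicates 3 and 4, 9 without these and no loess, 15 with the brightest probe and 3 with outlier spots kept. Leaving out each sample in turn gave 1 to 2 members by the F test, 4 to 6 probes, 0 to 2 members called for BNS against SNS, 1 to 2 each for BYS and BYP, 1 to 3 for BYA, and 5 to 10 comparisons without overlap. The share of all genes without overlap was not counted in these alternative settings, so nothing about the members is drawn from those counts. Gabarapl2 in BNS lost its call without BNS replicate 1 (adjusted p = 0.0598) or SNS replicate 4 (0.0503). The cause of these changes was not tested, and slide and condition cannot be told apart.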

Other observations

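The genes whose levels followed each member most closely over the samples are given as a description, after the dye effect was removed, and the samples share arrays and conditions. Gabarapl2 was followed by Atp5hl1 (r = 0.89 over 20 samples), Trak2 by Dpp3 (0.91) and Atad3a (0.90), Gabbr2 by Zfp870 (0.90 over 19 samples) and Cygb (0.85), and Gabarapl1 by Dpysl2 (0.87 over 19 samples) and G6pc3 (0.84). Gabarap was followed by Nop10 (0.85), Gphn by Gprin3 (0.80) and Nrn1 (0.79), Nsf by Adcy3 (0.82) and Tnfrsf21 (0.80), and Gabbr1 by a transcript without a gene symbol and by Fam181b (0.78 each). The other gene of Gabarapl2 and of Gabarap was a probe without a gene name (0.88 and 0.84).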
